A study of Mus musculus with 10 samples.

Results

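The genes described here encode the sarcomere proteins, and the RNA beside them, that exchange a fetal form for an adult form as the heart matures. They are 8 genes in 3 families, chosen by name: the heavy chain genes Myh6, Myh7 and Myh7b with the antisense RNA Mhrt, the troponin I genes Tnni1 and Tnni3, and the striated alpha actin genes Acta1 and Actc1. All 8 had a row in each of the 3 gene tables, which held 16876, 16938 and 17487 genes. A p was given for 8 of 8 in the comparison of Ft1ko with WT, for 7 where Ft1sm22ko was set against WT and for 7 between the mutants.

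Myosin heavy chains form the thick filament and hydrolyse ATP. In the mouse ventricle the slow beta chain of Myh7 is the main form before birth and the fast alpha chain of Myh6 replaces it after birth, under the influence of thyroid hormone. Troponin I is the inhibitory subunit of the troponin complex on the thin filament, and the heart passes from the slow skeletal form, Tnni1, to the cardiac form, Tnni3. Acta1 and Actc1 encode the skeletal and the cardiac alpha actin, and the skeletal form is part of the fetal programme that diseased hearts can take up again.

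Ft1, whose mouse gene is Aktip, is a factor required at telomeres. RNA of hearts from male mice of 1 week of age was sequenced in 3 WT, 3 Ft1ko and 4 Ft1sm22ko animals. Ft1ko mice came from a floxed Ft1 allele crossed with the ubiquitous CMV-cre line, and Ft1sm22ko mice from the same allele crossed with an sm22-cre line, in which the promoter of Tagln (sm22), a smooth muscle gene, drives Cre. Tagln is also expressed for a time in the heart muscle of the embryo, and which alleles the WT animals carry is not given in the sources used here.

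The deposited values are 1 per gene and comparison: a mean of normalized counts over the hearts of both groups, a fold change on the log2 scale with a standard error (SE), and the p of the authors' DESeq2 Wald test. No value per heart was analysed here, so group means are given without an error, the SE of the fold change stands for the spread between hearts, and the depth of each library is unknown. Group means were worked out from the mean and the fold change. Each table was normalized on its own, so the WT mean of a gene differs from table to table. Fold changes are mutant over WT or Ft1sm22ko over Ft1ko. Both mutants were set against the same WT hearts, so changes seen in both are not independent of each other. The adjusted p is a Benjamini-Hochberg value over all genes with a p in that table (16748, 16661 and 17169), and a gene was called when it was under 0.05.

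Sequence is shown first for the RNAs that these genes carry. Each heavy chain gene hosts a microRNA of 1 family, with Mir208a inside Myh6, Mir208b inside Myh7 and Mir499 inside Myh7b. The mature forms are given below from RefSeq (GRCm38.p6), 5′ to 3′, with the seed (bases 2 to 8) in capitals.
mmu-miR-208a-3p: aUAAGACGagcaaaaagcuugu
mmu-miR-208b-3p: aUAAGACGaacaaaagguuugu
mmu-miR-499-5p: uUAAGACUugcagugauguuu
The seeds of miR-208a and miR-208b were identical and that of miR-499 differed from them at 1 base (G8U, with positions counted from the 5′ end). Outside the seed miR-208b differed from miR-208a at 3 bases, G10A, A16G and C18U.

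The promoters of the heavy chain and the actin pair are shown. In both mutants the estimated fold changes had opposite signs in the first pair and the same sign in the second. Myh7 was not called and its 95% intervals against WT held 0, so opposite changes of the heavy chains are not established. The promoters were read from RefSeq (GRCm38.p6) over the 250 bases before the most upstream start that the RefSeq table lists. Bases inside any GENCODE exon were left out. For 6 of the 8 members the GENCODE gene begins further upstream, by 320 bases for Myh6 and 673 for Actc1, so their windows lie within the GENCODE gene, while those of Myh7 and Acta1 lie outside it. Capitals mark, on either strand, the MCAT element CATTCC (the site of Tead factors), the GATA element GATAA, the TATA box TATAAA and the CArG box, the site of Srf. None of these matches overlapped.
Myh6, chr14:54966642-54966857, minus strand: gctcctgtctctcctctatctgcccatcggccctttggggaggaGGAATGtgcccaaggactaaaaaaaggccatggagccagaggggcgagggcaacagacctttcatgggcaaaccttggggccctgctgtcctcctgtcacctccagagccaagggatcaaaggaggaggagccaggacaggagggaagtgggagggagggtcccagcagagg
Myh7, chr14:54994627-54994876, minus strand: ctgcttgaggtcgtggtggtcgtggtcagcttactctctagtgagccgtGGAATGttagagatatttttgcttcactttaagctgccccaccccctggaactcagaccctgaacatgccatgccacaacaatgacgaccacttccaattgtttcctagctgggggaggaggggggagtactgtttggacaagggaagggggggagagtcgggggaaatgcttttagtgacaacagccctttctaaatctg
Acta1, chr8:123894776-123895025, minus strand: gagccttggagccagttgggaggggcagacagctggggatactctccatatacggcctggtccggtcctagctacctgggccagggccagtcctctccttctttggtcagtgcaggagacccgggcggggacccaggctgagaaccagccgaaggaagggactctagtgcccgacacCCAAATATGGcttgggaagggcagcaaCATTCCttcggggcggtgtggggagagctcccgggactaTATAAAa
Actc1, chr2:114052888-114053125, minus strand: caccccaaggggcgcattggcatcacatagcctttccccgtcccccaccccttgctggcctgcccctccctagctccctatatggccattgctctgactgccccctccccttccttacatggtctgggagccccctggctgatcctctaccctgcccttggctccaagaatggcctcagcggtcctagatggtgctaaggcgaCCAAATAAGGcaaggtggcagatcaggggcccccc
Both actin promoters held 1 CArG box, which was found in 1.41% of 27025 promoters of this length. Myh6, Myh7, Mhrt and Acta1 each held 1 MCAT element, against 12.6% of all promoters. GATAA was found among the members in Myh7b only (23.0% of all promoters), and TATAAA in Acta1 only (13.0%). No match was found in the windows of Tnni1 and Tnni3, whose GENCODE genes begin 19987 and 1701 bases further upstream. A match describes the letters in this window and was not tested as a site.

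In Ft1ko hearts 7 of the 8 genes were called, 6 lower and 1 higher. The 6 lower were Myh6, Myh7b, Mhrt, Tnni3, Acta1 and Actc1, and the 1 higher was Tnni1. In the same comparison 35.7% of all genes were called, 16.1% lower and 19.7% higher. In Ft1sm22ko hearts 5 of 7 tested genes were called, with Myh6, Myh7b, Mhrt and Tnni3 lower and Tnni1 higher, against 32.2% of all genes called, 16% lower and 16.2% higher. Between the mutants 3 of 7 were called, Tnni3, Acta1 and Actc1, each higher in Ft1sm22ko, against 19.8% of all genes, 10.8% higher and 9% lower. Over the members with a p the direction was thus mostly down. The fetal troponin I was the exception that passed this test in both mutants, with a large spread between hearts and an extreme count described below.

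**Figure D1:**
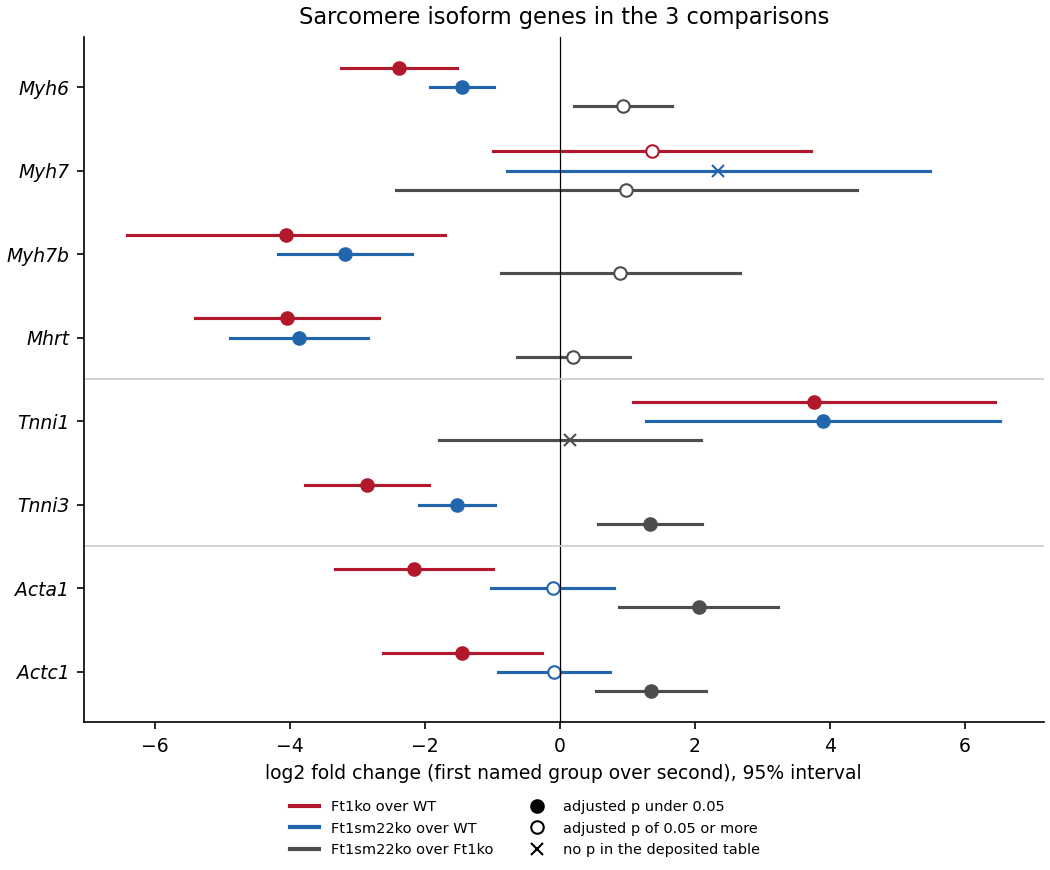
Log2 fold change of each gene (x axis) with its 95% interval, for each mutant over WT and for Ft1sm22ko over Ft1ko. Filled circles are genes with an adjusted p under 0.05, open circles those at 0.05 or more, and crosses mark Myh7 and Tnni1 where the deposited table gives no p. Myh6, Myh7b, Mhrt and Tnni3 lie below 0 in both mutants, Tnni1 above 0, and both actins below 0 in Ft1ko but near 0 in Ft1sm22ko.

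With the Bonferroni threshold that the study states, 3 of 8 genes remained called in Ft1ko (Myh6, Mhrt and Tnni3, against 8.98% of all genes) and 4 of 7 in Ft1sm22ko (these 3 and Myh7b, against 7.62%). Between the mutants 0 of 7 passed it by the DESeq2 Wald p, 4 had an unadjusted p under 0.05, and 2.45% of all genes passed. With a Student distribution for 4 or 5 residual degrees of freedom in place of the normal, no gene of any table was called, members included, while 5, 5 and 3 members kept an unadjusted p under 0.05.

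The alpha heavy chain gene Myh6 fell in both mutants. Its mean was 676574 normalized counts in WT and 130614 in Ft1ko, a log2 fold change of -2.37 (SE 0.44, adjusted p = 1.26e-06), or 5.18-fold lower. In the other table it was 910933 in WT and 334643 in Ft1sm22ko, a log2 fold change of -1.44 (SE 0.24, adjusted p = 8.21e-08), or 2.72-fold lower. The 95% intervals were -3.23 to -1.51 in Ft1ko and -1.92 to -0.97 in Ft1sm22ko. With a Student distribution in place of the normal the adjusted p was 0.106 and 0.0641. Between the mutants Myh6 was at a log2 difference of 0.94 (SE 0.37, adjusted p = 0.0551), with a 95% interval of 0.21 to 1.67 on the side of Ft1sm22ko. This last value crossed the threshold under 3 alternatives, with an adjusted p of 0.0485 or 0.0449 over genes with a mean of at least 10 or 100 and 0.0402 after centring on all genes.

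Myh7, the beta heavy chain gene, was not called in any comparison. Its mean was 608 normalized counts in WT and 1572 in Ft1ko, a log2 fold change of 1.37 (SE 1.20, adjusted p = 0.393, 95% interval -0.98 to 3.72). In the second table it was 826 in WT and 4216 in Ft1sm22ko, a log2 fold change of 2.35 (SE 1.60, interval -0.78 to 5.48). The authors' tool withholds the p of a gene where 1 library has an extreme count, and it did so for Myh7 in this table. Both intervals hold 0 and reach to 3.72 and above, so neither a change nor its absence was detectable. The log2 difference between the mutants was 0.99 (SE 1.74, adjusted p = 0.745).

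The change of the pair as a whole can be read from the difference of both fold changes. Myh7 minus Myh6 was 3.74 on the log2 scale in Ft1ko and 3.80 in Ft1sm22ko, with an SE of 1.28 and 1.61 if the errors of the genes were independent, which was not tested. Per kb of the longest coding transcript (6230 bases for Myh7, 6113 for Myh6), Myh7 made up 0.0881% of the pair in WT and 1.17% in Ft1ko, and 0.0889% in WT and 1.22% in Ft1sm22ko. The alpha chain RNA thus stood 1135 times above the beta chain in WT, 84.7 times above it in Ft1ko and 80.9 times in Ft1sm22ko. These ratios have no error and rest on Myh7 means, a gene not called in either mutant. In the comparison of Ft1sm22ko with WT 1 library had an extreme Myh7 count. Myh6 remained the main form in every group. The genes are close copies: of the 50-base windows of the Myh7 transcript 22.2% occur unchanged in a Myh6 transcript, and of its 150-base windows 5.43%. How the authors' counting treated reads that match both is not given in the sources used here, so the level of the scarce partner is uncertain.

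Myh7b, a heavy chain gene on another chromosome (chr2:155611212-155634307, GRCm38, plus strand) and the host of miR-499, fell in both mutants. Its mean was 8873 normalized counts in WT and 536 in Ft1ko, a log2 fold change of -4.05 (SE 1.20, adjusted p = 0.0037). Against 12091 in WT it was 1337 in Ft1sm22ko, a log2 fold change of -3.18 (SE 0.51, adjusted p = 1.34e-08). The Myh7b transcript shared no 50-base window with Myh6. Myh7b minus Myh6 was -1.68 in Ft1ko (SE 1.28) and -1.73 in Ft1sm22ko (SE 0.56), both SE again for independent errors, so the 95% interval of the gap to Myh6 held 0 in Ft1ko and not in Ft1sm22ko. Between the mutants Myh7b differed by 0.90 (SE 0.90, adjusted p = 0.531).

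Mhrt, a heart RNA that begins between Myh6 and Myh7 and runs against Myh7, fell in both mutants too. In GENCODE M21 (GRCm38) it lies at chr14:54968678-54974349 on the plus strand, starts 1751 bases upstream of the Myh6 start, and lies over Myh7 (chr14:54970684-54994626, minus strand) for 3666 of its 5672 bases. Its mean was 6697 normalized counts in WT and 408 in Ft1ko, a log2 fold change of -4.04 (SE 0.69, adjusted p = 1.48e-07). Against 9130 in WT it was 627 in Ft1sm22ko, a log2 fold change of -3.86 (SE 0.52, adjusted p = 1.31e-11). Mhrt therefore stood 16.4-fold lower in Ft1ko and 14.6-fold lower in Ft1sm22ko. Between the mutants its log2 difference was 0.20 (SE 0.43, adjusted p = 0.794, interval -0.64 to 1.04).

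The fold change of Mhrt was lower than that of Myh6, whose start it faces. The estimate of Myh7 was positive, but Myh7 was not called, so opposite changes of Mhrt and Myh7 are not established. Mhrt minus Myh6 was -1.66 in Ft1ko (SE 0.82) and -2.42 in Ft1sm22ko (SE 0.58), for independent errors, and both 95% intervals lay below 0. Of the 50-base windows of the Mhrt transcript 38.8% are the reverse of a Myh7 transcript. The libraries mark strand, but the strand setting of the count is not given in the sources used here, so reads of Mhrt and Myh7 may have been told apart only in part.

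The microRNA genes inside the heavy chain genes had rows of their own, which count reads over the hairpin in a poly(A) library and are not levels of the mature forms printed above. Mir208a, inside Myh6 on the same strand, was at 130 normalized counts in WT and 21.1 in Ft1ko, a log2 fold change of -2.62 (SE 0.57, adjusted p = 4.16e-05). Against 174.4 in WT it was 11.0 in Ft1sm22ko, a log2 fold change of -3.98 (SE 0.47, adjusted p = 7.65e-15). The host was at -1.44 in that table, and the difference between both was not tested. Mir208b, inside Myh7, was at 9.79 in WT and 0.774 in Ft1ko, a log2 fold change of -3.66 (SE 1.22, adjusted p = 0.0105), while its host was not called. In Ft1sm22ko Mir208b was at -2.00 (SE 0.91, adjusted p = 0.078), from 13.2 to 3.30 normalized counts. Mir499 had no row.

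Other RNAs that stay in the nucleus or are precursors moved the same way as Mhrt and the hairpin rows. These were chosen after their values were seen. The ribosomal precursor Rn45s was at a log2 fold change of -4.87 (SE 0.69) in Ft1ko and -4.52 (SE 0.91) in Ft1sm22ko. Its mean went from 5459498 normalized counts in WT to 186896 in Ft1ko, and from 7448326 in WT to 324165 in Ft1sm22ko. Malat1 was at -2.02 (SE 0.56) and -3.57 (SE 0.50), and Neat1 at -3.02 (SE 0.43) and -3.38 (SE 0.36). The part of such RNA in the falls of Mhrt, Mir208a and Mir208b, or in any other value of a mutant over WT, was not tested.

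Of the 8 listed genes of the heavy chain locus and the host genes 6 had a row, and Mir499 and Il25 had none. In Ft1ko 1 was higher and 3 were lower, and in Ft1sm22ko 1 was higher and 2 were lower, and the medians were -1.05 and -0.55 (log2). Of all genes 35.7% were called in Ft1ko and 32.2% in Ft1sm22ko. Efs, a Src substrate gene beside the locus, rose by 1.30 (SE 0.28) and 1.05 (SE 0.25), so not every gene of this stretch of chromosome 14 fell. Ngdn was at -0.99 (SE 0.28) and -0.80 (SE 0.18).

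The troponin I pair moved in opposite directions in both mutants. Tnni1, the slow skeletal and fetal form (chr1:135779434-135810989, GRCm38, plus strand), was at 256 normalized counts in WT and 3481 in Ft1ko, a log2 fold change of 3.77 (SE 1.37, adjusted p = 0.0201), or 13.6-fold higher. Against 350.3 in WT it was 5241 in Ft1sm22ko, a log2 fold change of 3.90 (SE 1.34, adjusted p = 0.0148), or 15.0-fold higher. The intervals are wide, from 1.09 to 6.44 and from 1.28 to 6.53. Neither rise passed the Bonferroni threshold, and the spread behind the SE was 116% and 121% of the mean. The mutants were at a log2 difference of 0.16 (SE 0.99, interval -1.78 to 2.10), and the p of Tnni1 was withheld in this comparison, as that of Myh7 was above. The extreme count that this marks lies in a mutant heart, which also entered a comparison with WT. The part of that heart in the rise of Tnni1 was not tested.

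Tnni3, the cardiac form (chr7:4518305-4524229, GRCm38, minus strand), fell. Its mean was 106287 normalized counts in WT and 14736 in Ft1ko, a log2 fold change of -2.85 (SE 0.47, adjusted p = 3.96e-08), or 7.21-fold lower. Against 142797 in WT it was 49816 in Ft1sm22ko, a log2 fold change of -1.52 (SE 0.29, adjusted p = 3.27e-06), or 2.87-fold lower. The fall was smaller in Ft1sm22ko, since the direct comparison gave a log2 difference of 1.34 (SE 0.40, adjusted p = 0.00714) in its favour. By Q-PCR the paper describes a significant fall or a tendency to one in Ft1ko and none in Ft1sm22ko.

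Tnni1 minus Tnni3 was 6.62 on the log2 scale in Ft1ko (SE 1.44) and 5.42 in Ft1sm22ko (SE 1.37), for independent errors. Per kb of transcript (1150 bases for Tnni1, 912 for Tnni3) the fetal form made up 0.19% of troponin I RNA in WT, 15.8% in Ft1ko and 7.70% in Ft1sm22ko, with 0.194% in WT by the second table. Tnni3 exceeded Tnni1 in WT by 524.3 and 514 times per kb in the 2 tables, in Ft1ko by 5.34 times and in Ft1sm22ko by 12.0 times. The cardiac form remained the more abundant one in all groups. The Tnni1 mean of a mutant group includes the extreme count named above, so these shares are imprecise. The transcripts share no exact 50-base window, and how the authors' counting treated reads with mismatches or several matches was not tested.

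For the actins no shift within the pair was detectable. Acta1, the skeletal form (chr8:123891769-123894751, GRCm38, minus strand), was at 664.4 normalized counts in WT and 149 in Ft1ko, a log2 fold change of -2.16 (SE 0.60, adjusted p = 0.00185), or 4.46-fold lower. Against 896.7 in WT it was 835.2 in Ft1sm22ko, a log2 fold change of -0.10 (SE 0.46, adjusted p = 0.891, interval -1.01 to 0.81). The fetal actin thus fell in Ft1ko, and in Ft1sm22ko a change beyond the spread was not detectable.

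Actc1, the cardiac form (chr2:114047282-114053548, GRCm38, minus strand), was at 92139 normalized counts in WT and 33882 in Ft1ko, a log2 fold change of -1.44 (SE 0.60, adjusted p = 0.0463). Centring on genes with a mean of at least 100 moved this value to -1.33 and its adjusted p to 0.0685, so the call was lost under that scaling. Against 123345 in WT it was 115989 in Ft1sm22ko, a log2 fold change of -0.09 (SE 0.42, adjusted p = 0.897, interval -0.92 to 0.74).

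Both actins were higher in Ft1sm22ko than in Ft1ko. The log2 difference was 2.06 for Acta1 (SE 0.60, adjusted p = 0.00633) and 1.36 for Actc1 (SE 0.41, adjusted p = 0.00969). Acta1 minus Actc1 was -0.71 in Ft1ko (SE 0.85) and -0.01 in Ft1sm22ko (SE 0.63), for independent errors, so no shift within the pair was detectable. Per kb (1446 bases for Acta1, 1473 for Actc1) the skeletal form made up 0.729% of both in WT, 0.446% in Ft1ko and 0.728% in Ft1sm22ko. The actin transcripts share no exact 50-base window.

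Across the families the order of levels per kb changed from WT to the mutants. In WT it ran from Tnni3 (116543 per kb in the Ft1ko table) over Myh6 (110678), Actc1 (62552), Mhrt (8088), Myh7b (1440), Acta1 (459.5) and Tnni1 (222.3) to Myh7 (97.5), and it was the same in the second table. In both mutants it ran from Actc1 over Myh6, Tnni3, Tnni1, Mhrt, Myh7 and Acta1 to Myh7b. Tnni1 moved from rank 7 to 4, and Myh7b from rank 5 to 8. The levels have no error per group, so whether neighbours in this order differ beyond the spread could not be tested.

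**Figure D2:**
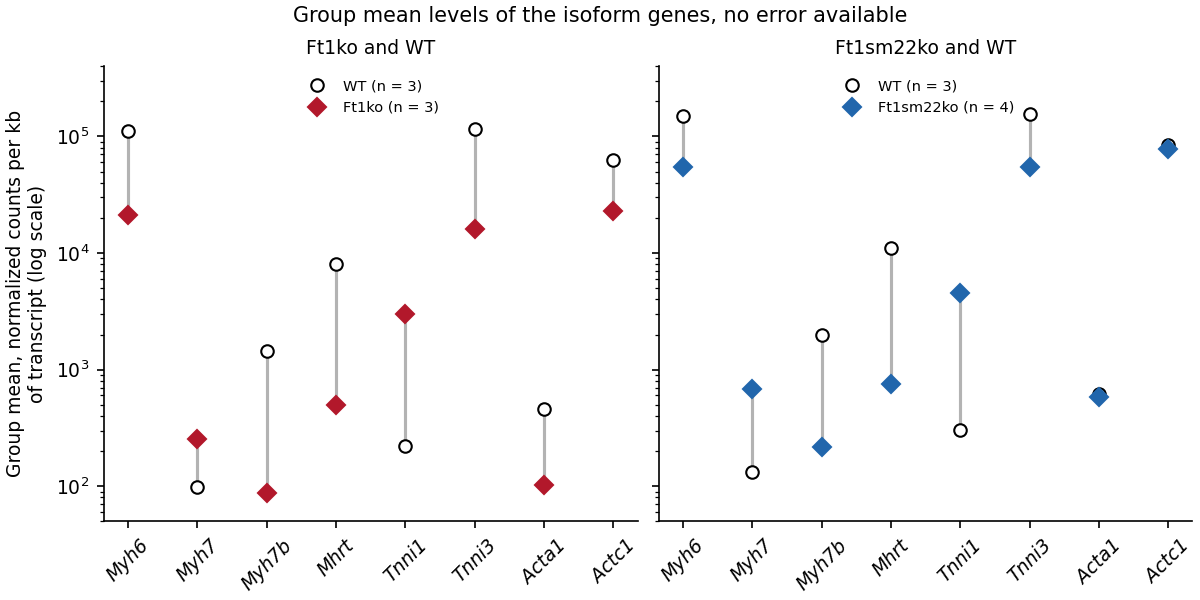
Mean level of each gene in WT (open circles) and in Ft1ko or Ft1sm22ko (diamonds), in normalized counts per kb of transcript on a log axis, 1 panel for each table. The levels of Myh6 and Tnni3 fall from 110678 and 116543 per kb in WT to 21367 and 16158 in Ft1ko, Tnni1 rises from 222.3 to 3027 in Ft1ko and from 304.6 to 4557 in Ft1sm22ko, and both actins stay near their WT level in Ft1sm22ko.

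The spread between hearts that the SE stands for differed much among these genes. It is the spread as fitted by the authors' model and was not measured on single hearts. Its median over genes whose mean reached 100 normalized counts was 28.0% of the mean for Ft1ko and WT, 22.3% for Ft1sm22ko and WT and 20.9% between the mutants. Myh6 was nearest to this, at 37.3%, 22.0% and 33.7%. Myh7 stood at 102%, 145% and 158%, above that of 99.1%, 99.8% and 99.4% of those genes, and Tnni1 at 116%, 121% and 89.8%. The fetal forms of the first 2 families were therefore the least precisely measured members, and Myh7b was as imprecise in Ft1ko (102%) but less so in Ft1sm22ko (45.8%).

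**Figure D3:**
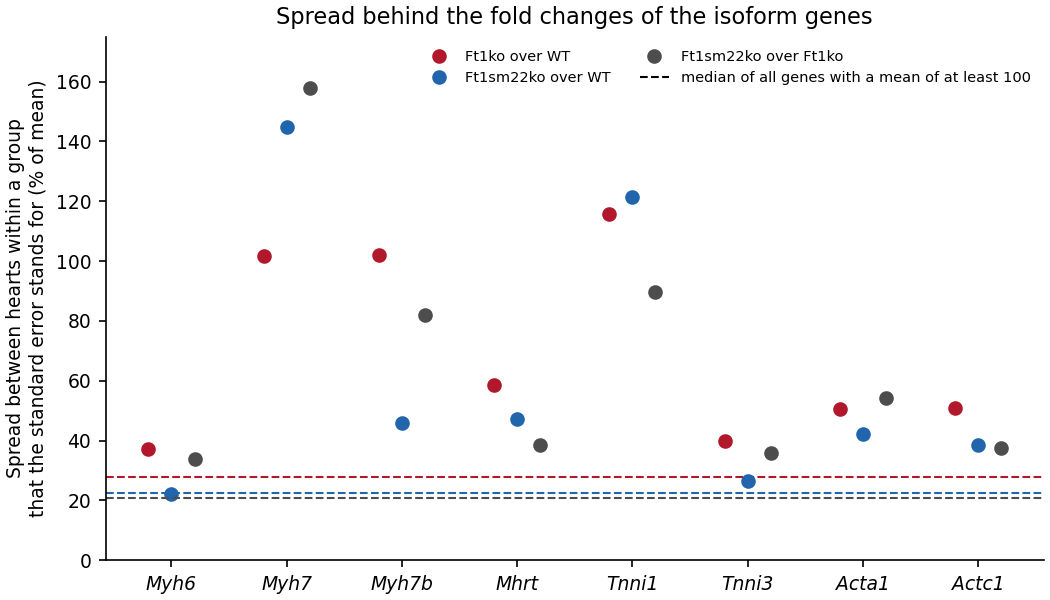
Spread between hearts of 1 group, in percent of the mean, worked out from the SE of each fold change on the assumption of an equal relative spread in both groups. Dashed lines are the medians over all genes with a mean of at least 100 (28.0%, 22.3% and 20.9%), and the points of Myh7 and Tnni1 lie far above them in all 3 comparisons.

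The targeted gene and the markers of cell types were read from the same tables. Aktip fell from 663.9 to 174.5 normalized counts in Ft1ko (log2 fold change -1.93, SE 0.27) and from 893.6 to 387.2 in Ft1sm22ko (-1.21, SE 0.27). All 12 cardiomyocyte markers, such as Ttn, Ryr2 and Tnnt2, were present and fell in Ft1ko, with a median of -2.49, and 8 of 12 fell in Ft1sm22ko, with a median of -1.21. Over all genes tested the median was 0.13 and 0.06. For this and the marker lists below, 35.7% of all genes were called in Ft1ko and 32.2% in Ft1sm22ko. Fewer heart muscle cells, less RNA per heart muscle cell and a larger share of other tissue in the sample cannot be told apart here. The summed level of these markers went from 865362 to 156794 in Ft1ko and from 1164405 to 448134 in Ft1sm22ko.

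Set beside those markers, which include none of the 8 genes, the members stood at different distances from the marker median. Myh6 was close to the marker median, 0.11 above it in Ft1ko and 0.23 below it in Ft1sm22ko on the log2 scale, and Tnni3 was -0.36 and -0.31 from it. Myh7b (-1.56 and -1.96) and Mhrt (-1.55 and -2.65) lay below it, and in Ft1sm22ko below all 12 markers. Tnni1 (6.25 and 5.12) and Myh7 (3.86 and 3.57) lay above it and above all 12 markers in both mutants, though Myh7 was not called. Actc1 (1.04 and 1.13) lay above it too, over 10 of 12 markers in Ft1ko and 11 in Ft1sm22ko. Acta1 was 0.33 above the median in Ft1ko and 1.11 above it in Ft1sm22ko. These distances are descriptions with no test.

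Markers of the atrial muscle cell moved with Tnni1. All 8 atrial markers were called higher in Ft1ko and 7 of 8 in Ft1sm22ko, with medians of 5.68 and 5.78, and their summed level went from 1662 to 57084 and from 2245 to 75357. In WT some were near 0, with Sln at 4.66 and Mybphl at 9.68 normalized counts. Of the 6 ventricular markers 2 were lower in Ft1ko and 2 in Ft1sm22ko, with medians of -1.81 and -0.33. Their summed level went from 219102 to 37418 and from 293814 to 187934. The part of chamber composition in the values of Tnni1, Myh6 and the other members was not tested.

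The skeletal muscle markers were read because skeletal muscle also expresses Tnni1 and Acta1. Of 17 markers 11 had a row in the Ft1ko table and 13 in the Ft1sm22ko table, and the muscle regulators Myod1, Myf5 and Myf6 had none. In Ft1ko 0 rose and 2 fell, in Ft1sm22ko 0 rose and 1 fell, and the medians were -0.88 and -0.95. At an unadjusted p under 0.05 1 of them were higher in Ft1ko and 0 in Ft1sm22ko by the DESeq2 Wald p. Their summed level went from 532.6 to 273.4 in Ft1ko and from 719.8 to 471.2 in Ft1sm22ko. The list includes fast forms such as Myh1, while Tnni1 is the slow form. Some markers were near 0, with Pvalb at 2.75 normalized counts in WT in the Ft1ko comparison. The part of skeletal muscle in the values of Tnni1 and Acta1 was not tested.

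Markers of other cells moved too. Of 8 fibroblast markers 6 rose in Ft1ko and 8 in Ft1sm22ko (medians 1.85 and 1.92, summed 31894 to 106597 and 42957 to 154483). Of 8 smooth muscle markers 6 rose and 1 fell in Ft1ko and 3 rose and 1 fell in Ft1sm22ko (medians 1.70 and 0.54, summed 15943 to 15493 and 21493 to 16952). Of 8 endothelial markers the 2 called in Ft1ko fell, and in Ft1sm22ko 2 rose and 3 fell (medians -0.10 and 0.25, summed 22540 to 16646 and 30430 to 26827).

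Markers of lung and thymus were also read. All 8 lung epithelium markers were higher in Ft1ko, with a summed level of 434.8 in WT and 50040 in Ft1ko, while Sftpd was at 0.319 in WT. The spread behind these fold changes was large, from 106% of the mean for Sftpd to 242% for Cldn18. In Ft1sm22ko the sum went from 596.9 to 3866, of which Scgb1a1 alone went from 99.95 to 3210, and without it the other 7 went from 497 to 655.7. Ager stood at 319.9 in WT and 58.8 in Ft1sm22ko, and Aqp5, the 1 marker with a p there, was higher. The 9 thymocyte markers had no p in Ft1ko, where their sum went from 89.2 to 5862. A withheld p marks an extreme count in 1 library, as for Myh7 above, so this sum need not hold for each Ft1ko heart. In Ft1sm22ko 1 of 9 was higher, with a sum of 121.4 and 170.2. Of 8 adipocyte markers 4 rose and 1 fell in Ft1ko and 2 rose in Ft1sm22ko (summed 17124 to 9766 and 23011 to 19280). Only 3 of 7 erythroid markers had a row, and all 3 rose in both (summed 878.3 to 3620 and 1183 to 6102). The part of these cells in the values of the 8 genes was not tested.

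**Figure D4:**
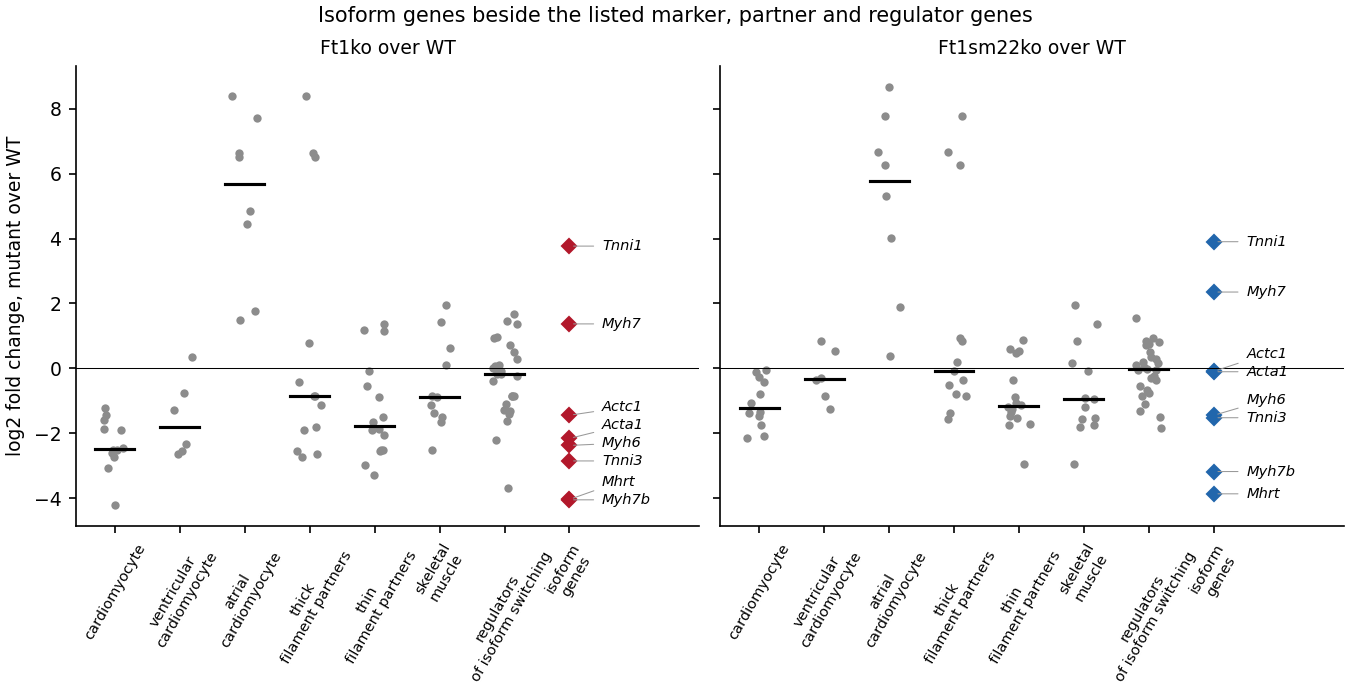
Log2 fold change over WT (y axis) of the genes of 7 lists (grey points, with the list median as a bar) and of the 8 isoform genes (diamonds) in Ft1ko and in Ft1sm22ko. The cardiomyocyte markers have a median of -2.49 and -1.21 and the atrial markers 5.68 and 5.78, with Myh6 and Tnni3 near the former and Tnni1 between them. Myl7, Myl4 and Mybphl are in both the atrial and the thick filament list.

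The partners of the heavy chains on the thick filament were counted next. For this and the lists that follow, 35.7% of all genes were called in Ft1ko and 32.2% in Ft1sm22ko. Of 13 genes 3 rose and 4 fell in Ft1ko, and 4 rose and 3 fell in Ft1sm22ko, with medians of -0.86 and -0.07. The atrial regulatory light chain Myl7 rose by 8.40 (SE 0.46) and 7.77 (SE 0.47), the atrial and fetal essential light chain Myl4 by 6.50 (SE 0.45) and 6.26 (SE 0.44), and the myosin binding protein Mybphl by 6.65 (SE 0.52) and 6.67 (SE 0.60). The M-band gene Myom2 fell by 1.79 in Ft1ko (SE 0.35, log2) and was at -0.52 in Ft1sm22ko (SE 0.28, adjusted p = 0.137). Mylk3, the kinase of the cardiac regulatory light chain, was at -0.41 in Ft1ko (SE 0.32, adjusted p = 0.318) and rose by 0.86 in Ft1sm22ko (SE 0.19).

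Among the partners of troponin I and actin on the thin filament 3 of 16 rose and 9 fell in Ft1ko, and 2 rose and 8 fell in Ft1sm22ko, with medians of -1.76 and -1.16. Lmod2, which lengthens thin filaments, was at -2.98 (SE 0.31) and -1.72 (SE 0.28). The capping protein genes Tmod4 (-3.30, SE 0.48, and -1.35, SE 0.48) and Tmod1 (-1.90, SE 0.35, and -0.87, SE 0.19) fell in both. Lmod3 was at -2.56 (SE 0.48) and -1.24 (SE 0.22). Cardiac troponin T, Tnnt2, the partner of Tnni3 in the same complex, was at -2.52 (SE 0.49) and -1.73 (SE 0.24), and so close to Tnni3 itself. The slow skeletal troponin T, Tnnt1, did not accompany Tnni1, at -0.55 in Ft1ko (SE 0.42, adjusted p = 0.319) and -1.14 in Ft1sm22ko (SE 0.27), a value named after it was seen. The genes that rose in Ft1ko were the tropomyosins Tpm2, Tpm3 and Tpm4, which nonmuscle cells also express.

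Other sarcomeric heavy chains were scarce. Of 7 listed genes 4 had a row in the Ft1ko table and 5 in the Ft1sm22ko table, and 1 was called, Myh13, at 0.306 normalized counts in WT and 7.22 in Ft1ko. The perinatal chain Myh8 was at 2.69 in Ft1ko (SE 1.86, adjusted p = 0.262) and 1.00 in Ft1sm22ko (SE 1.60, adjusted p = 0.673), and the embryonic chain Myh3 at -0.02 (SE 1.44) and -1.12 (SE 1.57). Myh1, a fast skeletal chain, was at -1.37 (SE 1.47) and -1.80 (SE 1.89). The medians were 1.34 and 0.85, over genes whose summed level was at most 258.8 normalized counts in these 2 tables.

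Of 8 nonmuscle and smooth muscle heavy chains and actins 5 rose in Ft1ko, and 3 rose and 1 fell in Ft1sm22ko, with medians of 1.09 and 0.28. The enteric smooth muscle actin Actg2 rose by 4.43 (SE 0.51) and 3.78 (SE 0.73), and the nonmuscle heavy chain Myh10 by 1.90 (SE 0.42) and 1.35 (SE 0.37). Cytoplasmic actin Actg1 rose by 1.21 (SE 0.32) and 1.14 (SE 0.25). Smooth muscle heavy chain Myh11 rose in Ft1ko by 1.39 (SE 0.40) and was at 0.23 in Ft1sm22ko (SE 0.44, adjusted p = 0.733), and Myh14 was at -0.30 (SE 0.51, adjusted p = 0.686) and fell by 1.66 in Ft1sm22ko (SE 0.39).

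The listed regulators of these isoform pairs changed in part. Of 29 genes 27 had a row, and Dio3 and Vgll2 had none. In Ft1ko 3 rose and 8 fell (median -0.17), against 19.7% of all genes called higher and 16.1% lower. In Ft1sm22ko 6 rose and 5 fell (median -0.02), against 16.2% higher and 16% lower. Whether these counts differ from the shares of all genes was not tested. On the thyroid hormone side the retinoid X receptor gene Rxrg was at -3.69 (SE 0.33) and -1.49 (SE 0.39), and the hormone receptor gene Thrb at -2.19 (SE 0.35) and -1.32 (SE 0.37). Pura, which encodes a binding protein of the Myh6 gene, was at -1.42 (SE 0.35) and -1.83 (SE 0.22). Klf15 was at -1.63 (SE 0.34) and -1.11 (SE 0.33), and Tbx5, a cardiac T-box factor, at 1.67 (SE 0.24) and 0.77 (SE 0.26). Tead3, a factor of the MCAT element, was at -0.17 in Ft1ko (SE 0.32, adjusted p = 0.705) and -0.86 in Ft1sm22ko (SE 0.22). Srf, the factor of the CArG box, was at 0.29 in both (SE 0.31 and 0.23) and was not called.

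The genes most like each member were sought by the distance of their log2 fold changes in both mutants, over 2 comparisons that share the WT hearts and among 9758 other genes with a p and a mean of at least 100 in both. Among the genes nearest to Myh6 were Dmpk and Plekha6, at distances of 0.0343 and 0.0539, and nearest to Tnni3 were Lpin1, Trdn and Itgb1bp2, at 0.0844, 0.0892 and 0.106. Among those nearest to Actc1 were Paqr9 and Mdh1 (0.0332 and 0.0429), and nearest to Acta1 were Alpk2, Btnl9 and Sez6l2 (0.0717 to 0.123). Tnni1 had few genes close by, with Myrf, Upk3b and Fras1 at 0.199, 0.330 and 0.465, and so had Myh7, with Bace2, Adamts12 and Sertad4 at 0.322, 0.386 and 0.409. Within a distance of 0.5 there were 5 genes for Tnni1, 10 for Myh7, 163 for Myh6, 93 for Tnni3, 51 for Acta1 and 393 for Actc1.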

How the data were processed

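Alignment was done by the authors with STAR, to a build named hg38 in paper and labels although the gene symbols are mouse. The authors counted reads per gene with HTSeq and fitted DESeq2 to each pair of groups. StringTie is also named, and no version is given in the sources used here. The deposited signal is a mean of counts over size factors, taken over the hearts of both groups. Fold changes and SE were deposited as log2 values. A Wald statistic was deposited as a score, with a 2-sided p-value from the authors' model. The sign was turned so that the mutant, or Ft1sm22ko, stands first. These columns are the authors' own comparison, used because the tables hold no value per heart. Replicate hearts are separate animals.

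Computed here were Benjamini-Hochberg and Bonferroni adjustment, group means, 95% intervals (1.96 SE), the spread behind each SE, list counts, pairs, levels per kb and motif matches, with scipy 1.17.1, pandas 2.3.3 and numpy 2.4.6 in python 3.11.15. Figures were drawn with matplotlib 3.10.9. The adjustment was checked on simulated data. Transcript lengths and places are from GENCODE M21 (GRCm38), sequences from RefSeq (GRCm38.p6), which held a promoter for 8 of 8 members. Named genes are the members, Aktip, per functional list up to 4 genes with the smallest p in each mutant, the 3 nearest genes of a member, and the markers given as examples. The members, the 6 functional and the 11 marker lists were chosen with earlier results of these data known. Alternatives were other adjustments, a fold limit, filters on the mean, centring, a Student distribution and, added after the data were seen, the p of genes whose p was withheld. Single genes that this rule also takes but the text does not name are not reported here. The paper's Q-PCR, cited above for Myh7 and Tnni3, used animals of both sexes. It also showed Myh6 and Acta1 lower in Ft1ko, the direction found here. The Q-PCR and the older mice were not analysed here.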

Additional observations from a re-analysis of the deposited data

Results flagged for a closer look

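In 3 genes the effect of the mutants differed by the direct comparison of Ft1sm22ko with Ft1ko (DESeq2 Wald p with Benjamini-Hochberg adjustment), and each was higher in Ft1sm22ko. Acta1 differed by 2.06 on the log2 scale (adjusted p = 0.00633), Actc1 by 1.36 (adjusted p = 0.00969) and Tnni3 by 1.34 (adjusted p = 0.00714). The cardiomyocyte markers had a median of 1.15 in the same comparison, with 9 of 12 higher, so Acta1 stood 0.91 above that median, Actc1 0.21 and Tnni3 0.19. The part of heart muscle RNA in these differences was not tested. The number of hearts that show each direction could not be counted.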

How the results depend on the processing

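The count of called genes in Ft1ko (7) was 3 with Bonferroni adjustment and 0 with a Student distribution for the residual degrees of freedom, that in Ft1sm22ko (5) was 4 and 0, and that between the mutants (3) was 0 and 0. The other 7 alternatives gave 6 or 7, 5, and 3 or 4 called genes. No fold change of a called gene reversed. Among single genes Actc1 lost its call in Ft1ko after centring on genes with a mean of at least 100, and Myh6 gained one between the mutants under 3 alternatives. Computing the p that were withheld changed no call (Myh7 in Ft1sm22ko, adjusted p = 0.265). No paired analysis was possible because the tables hold no value per heart, and leaving out single hearts was not possible for the same reason, so values without single hearts could not be given. The withheld p of Myh7 in Ft1sm22ko against WT, and of Tnni1 between the mutants, is how the authors' tool marks an extreme count in 1 library. Which heart it was could not be told. The SE of Myh7 (1.20 to 1.74 on the log2 scale) limits what these 3 or 4 hearts a group can show for it. Depth could not be assessed.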
